A study of Mus musculus with 6 samples.

Results

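The genes described here are 51 genes of G2 and mitosis, chosen by name and found in full among the 21881 genes of both deposited tables. Every one of the 51 was tested by the authors in both tables, and none was lost to a filter on low values. They are grouped by the step they serve: entry into mitosis, chromosome condensation, centromere and kinetochore, the chromosomal passenger complex, the spindle, the checkpoint and anaphase, and cytokinesis. The cells are mouse leukemia cells (strain C57/B6X129SV) driven by AE9a, a truncated AML1-ETO fusion protein, in which both Id1 alleles carry loxP sites (Id1 fl/fl) and a CreER recombinase is present. All 3 groups share that genotype and have 2 samples each: a control, with no agent or vehicle named, CBD (15 µM, 16 h), and 4-hydroxytamoxifen (4-OHT, 0.1 µM, 48 h), the drug that activates CreER. The series calls CBD an inhibitor of Id1. The labels name no promoter for CreER, no number of clones or animals, and no 4-OHT arm without loxP sites, and leave unsaid if a group's 2 samples came from separate cultures, so the authors' p-values may measure technical spread only.

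A cell enters mitosis when CDK1, bound to cyclin B, is freed of its inhibitory phosphates by CDC25 phosphatases, with polo-like and Aurora kinases in support. Condensins and topoisomerase II then compact the chromosomes, kinetochores tie them to the spindle, and a checkpoint holds back the anaphase-promoting complex (APC/C) until every chromosome is attached. Most of these genes are transcribed in late S phase and G2 and are quiet in G1, so in bulk RNA their summed level is widely used as a readout of how many cells are cycling.

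Each table holds 1 FPKM value per group (a level scaled for transcript length and sequencing depth) and the authors' Cuffdiff p and q, so the levels carry no SD or interval and the depth is unknown. Here "fell" and "rose" mean that the q of the authors' deposited table was under 0.05, and every log2 fold was computed with 0.1 FPKM added to both values. Each table was made on its own and has its own control column, so a value set against the other table's control is a comparison of levels without a test. How many libraries stand behind each control column is not given in the sources used here. The description of control 1 names the CBD comparison and that of control 2 the 4-OHT comparison, so each column may rest on 1 library. Id1, the target, stood at 34.2 FPKM in the control and 11.95 with CBD (q = 0.133 in the authors' deposited table, not passing the test), and fell from 15.4 in the control to 0.741 with 4-OHT (q listed as 0). The cells held blood progenitor transcripts such as Kit, at 85.0 and 95.6 FPKM in the 2 control columns, while the granulocyte gene Elane was listed at 0 and the leukocyte gene Ptprc, at 0.151 and 0.104 FPKM, was close to it.

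With CBD, the G2 and mitosis genes were lower almost without exception. Of the 51 genes, 47 fell, against 7.74% of all 13751 tested genes, and none rose, against 18.4%. At an unadjusted p under 0.05 by Cuffdiff the counts were 48 and 0. The members' median log2 fold was −1.65, with the lower quartile at −1.92 and the upper quartile at −1.26, and the median of all tested genes was 0.29. Their summed level went from 3061 to 1188 FPKM, which is 38.8% of the control. The sum over all listed genes was 674548 FPKM in that control and 918666 with CBD, against 675380 and 700063 in the 4-OHT table. Summed levels of any list are therefore not parts of equal totals. In a bulk sample, fewer cells in G2 and mitosis and less of the members' RNAs in each such cell cannot be told apart. Of the 51, 46 were at least 2-fold lower, against 7.55% of tested genes, and 7 were at least 4-fold lower: Mki67, Cenpe, Cenpf, Aspm, Espl1, Smc4 and Top2a.

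Levels with CBD were also low against the other control column. All 51 values with CBD lay under both control columns, against 35.2% of the 10867 genes tested in both tables, and the median log2 fold against the control of the 4-OHT table was −1.68. In that comparison 44 were at least 2-fold lower, against 12.1% of genes. Of the 51, 47 both fell and lay under that other control, against 9.11% of genes. None of the 51 differed as much between the 2 control columns as between CBD and its own control. Restricted to genes that reached 10 FPKM in both controls, which 47 members did, 44 members fell, against 14.9% of the 5922 tested genes of that class.

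Markers of the nervous system moved with the CBD column. Of 10 neuron markers, 9 rose with CBD and none fell, and their summed level was 21.5 FPKM in the control and 181 with CBD, against 9.76 and 9.09 in the 4-OHT table. Of 12 oligodendrocyte and astrocyte markers, 11 rose and none fell, with sums of 51.6 and 267 FPKM, against 52.2 and 49.2. In the control of the CBD table, Tubb3 (20.5 FPKM) made up most of the neuron sum, and Mbp (38.6) and Cnp (10.2) most of the other. The neuron gene Rbfox3 and the oligodendrocyte gene Mog are listed there at 0, and at 2.76 and 7.23 FPKM with CBD. Each was the only marker of its list not to pass the test with CBD (q = 0.136 and 0.0689 in the authors' deposited table). The part of the nervous system signal in the fall of the mitosis genes was not tested. Of 17 tested leukemia and myeloid progenitor markers, 2 rose (Spn and Itgam) and 2 fell (Runx1 and Myb) with CBD. Itgam stayed near 0, at 0.0056 FPKM in the control and 0.382 with CBD, while Spn stood at 123 and 196. Over all tested genes, 18.4% rose and 7.74% fell with CBD. The 14 of this list that reached 1 FPKM in both controls had a median log2 fold of −0.06 with CBD, against −1.65 for the 51 genes. The summed level of the whole list was 1854 FPKM in the control and 2448 with CBD. Of 4 tested stromal and endothelial markers 2 rose (Col1a2 and Pecam1). Both levels were low, with Col1a2 at 0.0101 FPKM in the control and 0.332 with CBD, and Pecam1 at 0.213 and 1.34. Genes named here from these lists for their calls were chosen after their values were seen. Lymphoid markers stayed at a summed level of 0.741 FPKM or less in every column.

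With 4-OHT most of the 51 genes were slightly higher than in their own control, though not relative to leukemia and myeloid marker genes. Of the 51, 33 rose, against 27.2% of 11232 tested genes, and none fell, against 16.9%. At an unadjusted p under 0.05, 33 were higher and 1, Nek2, was lower by Cuffdiff. The sizes were small: the 33 genes that rose had log2 folds from 0.13 to 0.79, and none reached 2-fold. Any difference counted, 47 of the 51 were above their control, against 57.9% of genes. The median over all 51 was 0.19, against 0.05 for all tested genes. Their summed level went from 3379 to 3729 FPKM, 110.4% of the control.

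With 4-OHT the 14 leukemia and myeloid progenitor markers had a median log2 fold of 0.21, close to the 0.19 of the mitosis genes. Of the 15 tested markers of that list, 9 rose, against 27.2% of all tested genes, and 4 fell (Spn, Kit, Myb and Lmo2), against 16.9%. Centred on the 14, the members' median with 4-OHT was −0.02, so the direction of the small 4-OHT shift turned under that scaling, which was chosen after seeing the data. Against the control of the CBD table, centring on the 14 markers gave the members a median of 0.64 with 4-OHT, so there the members stood higher relative to the markers. Under upper quartile scaling the median against their own control was 0.16.

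**Figure D1:**
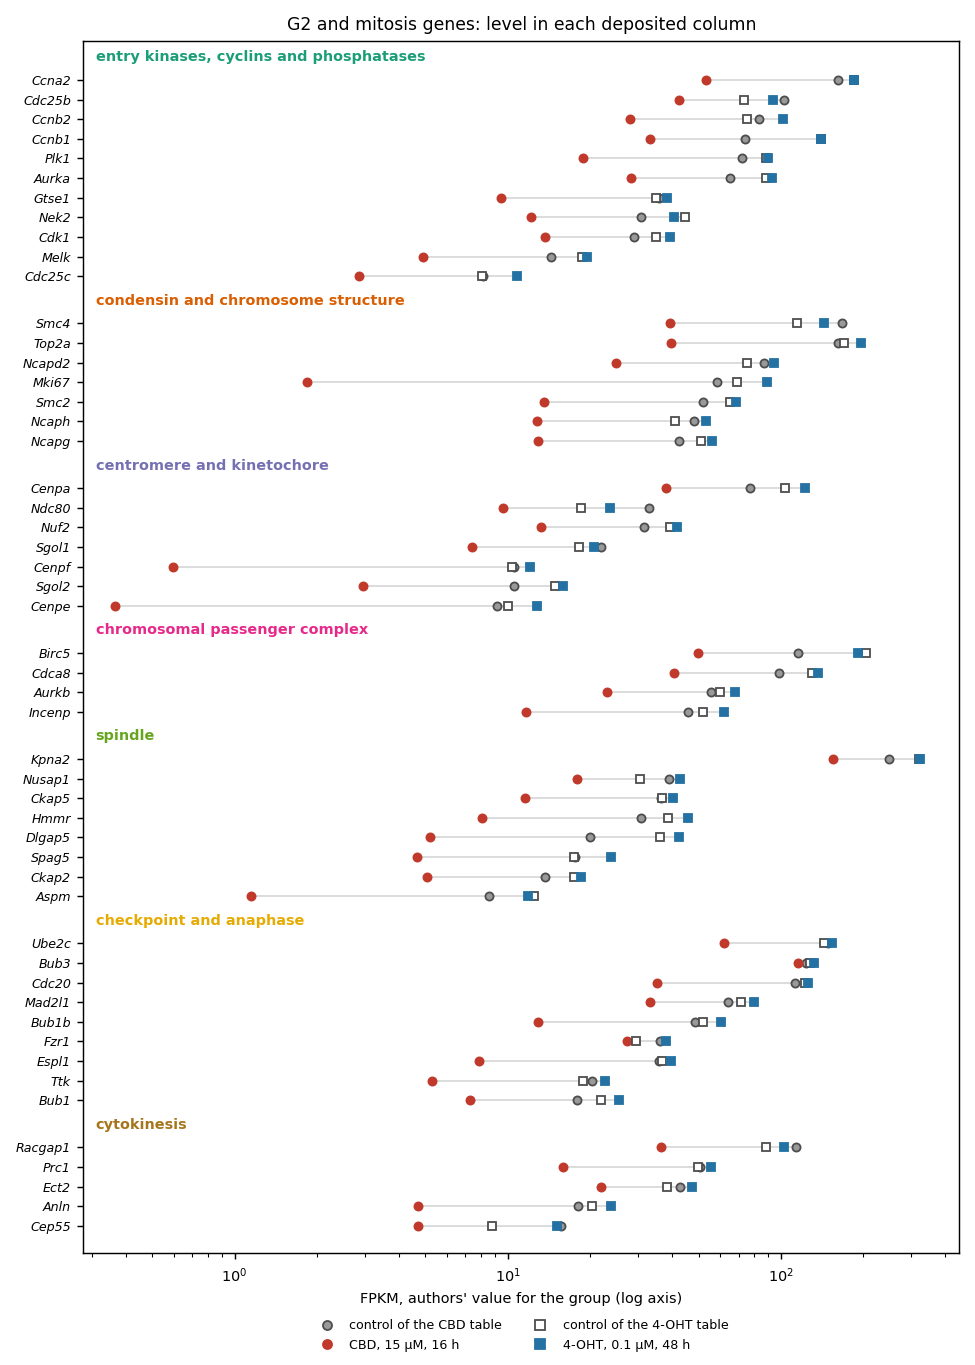
Level of each of the 51 genes in the 4 deposited columns, in FPKM on a log axis, with 1 point per group and no replicate error because the tables give none. The CBD point (red circle) lies to the left of both control points (grey circle and white square) for every gene, by the widest margin for Mki67, Cenpe and Cenpf and by the narrowest for Bub3 and Fzr1.

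Promoters of the members were read from RefSeq (GRCm38.p6, a later build than the mm9 of the tables) as windows from 250 bases before to 50 bases after each gene start. Windows were found for 45 of the 51 genes (not for Ccna2, Cdc25c, Smc4, Aurkb, Incenp and Dlgap5) and number 51 in all, since some genes have more than 1 start. The words searched on both strands were TTTGAA or its variant TTCGAA for the cell cycle genes homology region (CHR), the element MuvB binds, and CCAAT for the NF-Y box. For E2F sites the word was TTCCCGC or its variants, namely TTGGCGC or else TTCGCGC or lastly TTGCCGC. No word belongs to more than 1 set, and in the members 1 CHR match shared bases with a CCAAT match and 2 CCAAT matches shared bases with an E2F match. A CHR word was found in 37 of the 51 windows (72.5%), against 19.2% of all 32851 promoters. CCAAT was found in 41 (80.4%), against 37.4%, and both in 33 (64.7%), against 7.52%. An E2F word was in 10 (19.6%), against 9.57%. Among the 13574 promoters of genes tested with CBD the shares were 13.7% for CHR, 37.9% for CCAAT, 5.66% for both and 16.1% for E2F. These are counts of letters, not of bound sites.

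The 150 bases before the start are shown 5′ to 3′ for 9 genes, so that members with large and small folds can be compared, with CHR and CCAAT words of either strand in capitals: 7 that fell with CBD, from 6 of the 7 steps, and Bub3 and Fzr1, which did not pass the test. Their positions in GRCm38.p6 are Cdk1 at chr10:69352913-69353062 (minus strand), Mki67 at chr7:135716380-135716529 (minus strand), Cenpe at chr3:135212413-135212562 (plus strand), Ckap5 at chr2:91526612-91526761 (plus strand), Cdc20 at chr4:118437344-118437493 (minus strand), Espl1 at chr15:102296143-102296292 (plus strand), Ect2 at chr3:27153879-27154028 (minus strand), Bub3 at chr7:131560220-131560369 (plus strand), Fzr1 at chr10:81378371-81378520 (minus strand).
Cdk1: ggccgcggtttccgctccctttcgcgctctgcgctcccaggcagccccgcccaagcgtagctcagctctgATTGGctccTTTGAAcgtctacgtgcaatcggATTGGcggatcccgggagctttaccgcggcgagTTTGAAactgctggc
Mki67: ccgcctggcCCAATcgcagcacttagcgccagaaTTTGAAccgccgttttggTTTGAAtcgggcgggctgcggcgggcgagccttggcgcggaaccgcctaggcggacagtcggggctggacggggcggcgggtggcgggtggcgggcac
Cenpe: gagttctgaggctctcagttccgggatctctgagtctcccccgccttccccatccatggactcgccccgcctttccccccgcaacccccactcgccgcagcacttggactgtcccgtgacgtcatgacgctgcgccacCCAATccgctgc
Ckap5: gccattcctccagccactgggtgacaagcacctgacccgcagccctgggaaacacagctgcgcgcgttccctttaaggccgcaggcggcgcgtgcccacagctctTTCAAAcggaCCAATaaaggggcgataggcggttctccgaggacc
Cdc20: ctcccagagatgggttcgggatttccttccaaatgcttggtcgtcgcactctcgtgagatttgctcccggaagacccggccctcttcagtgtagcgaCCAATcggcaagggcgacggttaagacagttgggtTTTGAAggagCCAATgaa
Espl1: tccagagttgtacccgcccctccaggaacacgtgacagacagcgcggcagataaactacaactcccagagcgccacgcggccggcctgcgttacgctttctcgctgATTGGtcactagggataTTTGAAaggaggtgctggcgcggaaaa
Ect2: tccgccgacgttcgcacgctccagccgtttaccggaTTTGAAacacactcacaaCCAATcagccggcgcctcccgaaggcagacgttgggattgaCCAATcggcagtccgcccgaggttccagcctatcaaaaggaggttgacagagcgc
Bub3: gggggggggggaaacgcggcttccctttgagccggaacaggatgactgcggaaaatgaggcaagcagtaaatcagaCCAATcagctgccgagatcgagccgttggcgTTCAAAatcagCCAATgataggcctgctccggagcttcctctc
Fzr1: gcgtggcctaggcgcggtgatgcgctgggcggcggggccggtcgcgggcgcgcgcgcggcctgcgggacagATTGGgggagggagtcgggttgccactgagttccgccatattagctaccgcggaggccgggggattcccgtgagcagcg
In Cdc20 and Espl1 a CHR word stands a short way before the start with a CCAAT word upstream of it, while Mki67 and Cdk1 each hold 2 CHR words. Bub3, whose level hardly differed with CBD, holds a CHR word between 2 CCAAT words, as do Cdc20 and Cdk1, which fell. Cenpe, which fell more than all but 1 member, holds a CCAAT word and no CHR word. Fzr1 holds 1 CCAAT word and no CHR word.

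Entry into mitosis is driven by cyclins, the kinases they bind and the phosphatases that release them. The genes of this step numbered 11. Of these 10 fell with CBD, against 7.74% of all tested genes, and 5 rose with 4-OHT, against 27.2%. Their median log2 fold was −1.47 with CBD, −1.79 when CBD was set against the other table's control, and 0.07 with 4-OHT. Ccna2, cyclin A2, partner of CDK2 and CDK1, fell from 161 to 53.3 FPKM with CBD (−1.59), and stood at 185 and 185 FPKM in the 4-OHT table (0.0022). The B-type cyclins both fell with CBD. Ccnb1, cyclin B1, fell from 73.6 to 33.3 FPKM with CBD (−1.14), and stood at 140.2 and 139.9 FPKM in the 4-OHT table (−0.0035). Ccnb2, cyclin B2, fell from 83.1 to 28.01 FPKM with CBD (−1.57) and rose from 75.03 to 102 FPKM with 4-OHT (0.44). Ccnb1 is also the member whose control columns lay farthest apart, with a log2 difference of −0.93 between the control of the CBD table and that of the 4-OHT table. Against the control of the CBD table, the log2 folds with 4-OHT were 0.93 for Ccnb1 and 0.29 for Ccnb2, without a test. Cdk1, the kinase these cyclins activate, fell from 29.01 to 13.7 FPKM with CBD (−1.08) and rose from 34.7 to 39.4 FPKM with 4-OHT (0.18). Cdc25b, a phosphatase that activates CDK1, fell from 103 to 42.3 FPKM with CBD (−1.28) and rose from 73.4 to 93.7 FPKM with 4-OHT (0.35). Cdc25c, a related phosphatase and the least abundant member in both control columns, did not pass the test with CBD, at 8.14 and 2.87 FPKM (−1.47; q = 0.209 in the authors' deposited table) and rose from 8.03 to 10.8 FPKM with 4-OHT (0.43).

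The 4 further kinases of this step fell with CBD, and none of them passed the test with 4-OHT. Plk1, polo-like kinase 1, which acts on centrosomes and on CDC25, fell from 72.1 to 18.9 FPKM with CBD (−1.93), and stood at 87.9 and 89.6 FPKM in the 4-OHT table (0.03). Aurka, Aurora A, the kinase of the spindle poles, fell from 64.9 to 28.3 FPKM with CBD (−1.20), and stood at 88.2 and 92.5 FPKM in the 4-OHT table (0.07). Nek2, a kinase that separates the centrosomes, fell from 30.7 to 12.1 FPKM with CBD (−1.33), and stood at 44.4 and 40.6 FPKM in the 4-OHT table (−0.13). Nek2 and Ccnb1 were thus slightly under their own control with 4-OHT, neither past the test. Melk, maternal embryonic leucine zipper kinase, fell from 14.4 to 4.895 FPKM with CBD (−1.54), and stood at 18.8 and 19.5 FPKM in the 4-OHT table (0.06). Melk was the gene nearest to the threshold among those that fell with CBD, with q = 0.0451 in the authors' deposited table. Gtse1, a microtubule-binding protein of G2 that restrains p53, fell from 35.7 to 9.47 FPKM with CBD (−1.90) and rose from 34.9 to 38.4 FPKM with 4-OHT (0.14).

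Chromosome condensation showed the lowest median of the 7 steps with CBD. Its genes numbered 7. Of these 7 fell with CBD, against 7.74% of all tested genes, and 6 rose with 4-OHT, against 27.2%. The median log2 fold was −1.93 with CBD, −1.97 when CBD was set against the other table's control, and 0.32 with 4-OHT. The condensin I complex moved evenly. Smc2, 1 of its 2 ATPase subunits, fell from 51.98 to 13.6 FPKM with CBD (−1.93), and stood at 65.4 and 68.4 FPKM in the 4-OHT table (0.07). Smc4, the other ATPase, fell from 167 to 39.3 FPKM with CBD (−2.08) and rose from 114 to 143 FPKM with 4-OHT (0.33). The non-SMC subunits lay in the same range. Ncapd2, a HEAT-repeat subunit, fell from 86.8 to 24.9 FPKM with CBD (−1.80) and rose from 75.3 to 93.99 FPKM with 4-OHT (0.32). Ncapg, the other HEAT-repeat subunit, fell from 42.3 to 12.9 FPKM with CBD (−1.71) and rose from 50.8 to 55.96 FPKM with 4-OHT (0.14). Ncaph, the kleisin that closes the ring, fell from 47.9 to 12.8 FPKM with CBD (−1.90) and rose from 41.0 to 53.3 FPKM with 4-OHT (0.38). In the tables the listed loci of 7 members overlap another gene, so their values are less certain: Ccna2 with Exosc9, Ncapd2 with Scarna10, Ncapg with Lcorl and Gm3414, Smc4 with Mir15b and Mir16-2, Nusap1 with Oip5, Ckap5 with Snord67 and Cdc20 with Elovl1.

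Outside condensin, Top2a, topoisomerase II alpha, which untangles sister chromatids, fell from 161 to 39.6 FPKM with CBD (−2.02) and rose from 170.0 to 197 FPKM with 4-OHT (0.21). Mki67, whose promoter is printed above, encodes the Ki-67 antigen that coats mitotic chromosomes and lies on chromosome 7 from 142881471 to 142908062 in mm9, a span of 26592 nt with its introns. It stood at 58.3 FPKM in the control of the CBD table, 1.84 with CBD, 68.8 in the control of the 4-OHT table and 88.6 with 4-OHT. The CBD value is far under the other 3, which differ from each other by less than 2-fold. Its log2 fold with CBD of −4.91 was the lowest of the 51 and number 39 from the lowest of all 13751 tested genes. With 4-OHT it rose by a log2 fold of 0.36.

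Kinetochores are built on centromeric chromatin and bind the spindle microtubules. The genes of this step numbered 7. Of these 7 fell with CBD, against 7.74% of all tested genes, and 5 rose with 4-OHT, against 27.2%. The step had a median log2 fold of −1.77 with CBD, −1.56 when CBD was set against the other table's control, and 0.22 with 4-OHT. Cenpa, the histone H3 variant that marks the centromere, fell from 76.8 to 38.1 FPKM with CBD (−1.01) and rose from 104 to 123 FPKM with 4-OHT (0.24). Cenpe and Cenpf, 2 large proteins of the outer kinetochore, fell far more with CBD than the rest of the step. Cenpe, a kinesin motor that moves chromosomes to the spindle equator, fell from 9.098 to 0.366 FPKM with CBD (−4.30) and rose from 10.03 to 12.8 FPKM with 4-OHT (0.34). Cenpf, a protein of the kinetochore corona, fell from 10.6 to 0.594 FPKM with CBD (−3.94) and rose from 10.4 to 12.1 FPKM with 4-OHT (0.22). In mm9 Cenpe lies on chromosome 3 from 134875527 to 134936504 and Cenpf on chromosome 1 from 191464493 to 191511965. They and Mki67 took the consecutive places 39, 40 and 41 from the lowest fold of all tested genes. The CBD levels of Cenpe and Cenpf are low enough for the added constant to matter: with 1 FPKM added in place of 0.1, their log2 folds were −2.89 and −2.86, and that of Mki67 was −4.39.

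The microtubule-binding NDC80 complex gave smaller folds. Ndc80, its namesake subunit, fell from 32.9 to 9.57 FPKM with CBD (−1.77) and rose from 18.5 to 23.7 FPKM with 4-OHT (0.36). Nuf2, the partner of NDC80, fell from 31.4 to 13.2 FPKM with CBD (−1.24), and stood at 39.2 and 41.5 FPKM in the 4-OHT table (0.08). Ndc80 was among the members with the most distant control columns, and against the control of the 4-OHT table its log2 fold with CBD was −0.94. The shugoshins, which protect cohesin at the centromere, are listed under their older symbols. Sgol1, shugoshin 1, fell from 21.9 to 7.37 FPKM with CBD (−1.56) and rose from 18.3 to 20.7 FPKM with 4-OHT (0.18). Sgol2, shugoshin 2, fell from 10.6 to 2.96 FPKM with CBD (−1.80), and stood at 14.96 and 15.9 FPKM in the 4-OHT table (0.09).

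The chromosomal passenger complex corrects wrong attachments and later marks the cleavage plane. Its genes numbered 4. Of these 4 fell with CBD, against 7.74% of all tested genes, and 2 rose with 4-OHT, against 27.2%. Taken as a median, the log2 fold was −1.26 with CBD, −1.86 when CBD was set against the other table's control, and 0.13 with 4-OHT. Aurkb, the Aurora B kinase, fell from 55.4 to 23.1 FPKM with CBD (−1.26) and rose from 59.7 to 68.2 FPKM with 4-OHT (0.19). Incenp, the scaffold that holds and activates it, fell from 45.6 to 11.6 FPKM with CBD (−1.96) and rose from 51.95 to 61.7 FPKM with 4-OHT (0.25). Birc5, survivin, which brings the complex to the centromere, fell from 116 to 49.7 FPKM with CBD (−1.22), and stood at 205 and 191 FPKM in the 4-OHT table (−0.11). Cdca8, borealin, the remaining subunit, fell from 98.3 to 40.7 FPKM with CBD (−1.27), and stood at 129.95 and 137 FPKM in the 4-OHT table (0.08). Incenp had the lowest fold of the complex with CBD and the highest with 4-OHT. Birc5 was the only 1 of the 4 under its control with 4-OHT, without passing the test, and its 2 control columns differed by a log2 value of −0.83.

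Proteins that organise spindle microtubules made up the next step. Its genes numbered 8. Of these 7 fell with CBD, against 7.74% of all tested genes, and 5 rose with 4-OHT, against 27.2%. The middle log2 fold of the step was −1.77 with CBD, −1.83 when CBD was set against the other table's control, and 0.18 with 4-OHT. Kpna2, importin alpha, which releases spindle factors near chromatin, fell from 248 to 155 FPKM with CBD (−0.67), and stood at 321 and 324 FPKM in the 4-OHT table (0.01). Kpna2 was the most abundant member in all 4 columns and had the smallest fold of the genes that fell with CBD, with q = 0.0306 in the authors' deposited table. Aspm, a spindle pole protein whose loss causes microcephaly, fell from 8.57 to 1.15 FPKM with CBD (−2.80), and stood at 12.5 and 11.8 FPKM in the 4-OHT table (−0.08). Hmmr, the hyaluronan-mediated motility receptor, which binds spindle microtubules, fell from 30.9 to 8.06 FPKM with CBD (−1.92) and rose from 38.7 to 45.6 FPKM with 4-OHT (0.24). The following 3 bind microtubules as well. Nusap1, nucleolar and spindle associated protein 1, fell from 38.96 to 17.99 FPKM with CBD (−1.11) and rose from 30.6 to 42.7 FPKM with 4-OHT (0.48). Dlgap5, a stabiliser of kinetochore fibres, fell from 19.9 to 5.18 FPKM with CBD (−1.93) and rose from 36.1 to 42.3 FPKM with 4-OHT (0.23). Spag5, astrin, which joins kinetochores at metaphase, fell from 17.6 to 4.65 FPKM with CBD (−1.90) and rose from 17.5 to 23.9 FPKM with 4-OHT (0.44).

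Dlgap5 gave the largest rise when 4-OHT was set against the other table's control, a log2 fold of 1.08, where the CBD table's control held 19.9 FPKM and its own held 36.1. Ckap5, a microtubule polymerase that also serves cells outside mitosis, fell from 36.4 to 11.5 FPKM with CBD (−1.65) and rose from 36.8 to 40.4 FPKM with 4-OHT (0.13). Ckap2, a cytoskeleton-associated protein of the spindle, did not pass the test with CBD, at 13.7 and 5.05 FPKM (−1.42; q = 0.086 in the authors' deposited table), and stood at 17.4 and 18.5 FPKM in the 4-OHT table (0.08). Neither Ckap2 nor Cdc25c thus passed the test with CBD, at levels that were 36.9% and 35.2% of control, respectively.

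The spindle checkpoint and the machinery of anaphase held the 2 members with the smallest differences with CBD. Their genes numbered 9. Of these 7 fell with CBD, against 7.74% of all tested genes, and 5 rose with 4-OHT, against 27.2%. At the median, the log2 fold was −1.30 with CBD, −1.58 when CBD was set against the other table's control, and 0.15 with 4-OHT. Bub3, the adaptor that brings BUB kinases to the kinetochore, did not pass the test with CBD, at 123 and 115 FPKM (−0.09; q = 0.828 in the authors' deposited table), and stood at 128 and 132 FPKM in the 4-OHT table (0.05). Fzr1, CDH1, the APC/C activator of late mitosis and G1, did not pass the test with CBD, at 36.2 and 27.4 FPKM (−0.40; q = 0.341 in the authors' deposited table) and rose from 29.6 to 37.9 FPKM with 4-OHT (0.36). Fzr1 rose with 4-OHT, unlike Bub3. The remaining checkpoint genes fell. Bub1, a checkpoint kinase, fell from 18.0 to 7.27 FPKM with CBD (−1.30) and rose from 21.99 to 25.5 FPKM with 4-OHT (0.21). Bub1b, BUBR1, part of the inhibitor of APC/C, fell from 48.6 to 12.9 FPKM with CBD (−1.90) and rose from 51.7 to 60.1 FPKM with 4-OHT (0.22). Mad2l1, MAD2, which captures CDC20, fell from 63.8 to 33.3 FPKM with CBD (−0.94) and rose from 71.5 to 79.6 FPKM with 4-OHT (0.15). Ttk, the MPS1 kinase that starts the checkpoint signal, fell from 20.3 to 5.296 FPKM with CBD (−1.92) and rose from 18.9 to 22.6 FPKM with 4-OHT (0.26).

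Cdc20, Ube2c and Espl1, which carry the cell into anaphase, fell with CBD and did not pass the test with 4-OHT. Cdc20, the APC/C activator of anaphase, fell from 112 to 35.1 FPKM with CBD (−1.68), and stood at 123 and 125 FPKM in the 4-OHT table (0.03). Ube2c, the ubiquitin-conjugating enzyme of APC/C, fell from 149 to 62.0 FPKM with CBD (−1.27), and stood at 144 and 154 FPKM in the 4-OHT table (0.10). Espl1, separase, the protease that cuts cohesin, fell from 35.8 to 7.83 FPKM with CBD (−2.18), and stood at 36.8 and 39.6 FPKM in the 4-OHT table (0.10). Fzr1, the other APC/C activator, thus differed from Cdc20: its CBD value was 75.7% of control, against 31.2% for Cdc20, a difference between genes that was not tested.

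Cytokinesis genes were the step in which every member passed both tests. The genes of the step numbered 5. Of these 5 fell with CBD, against 7.74% of all tested genes, and 5 rose with 4-OHT, against 27.2%. Their log2 folds had a median of −1.66 with CBD, −1.27 when CBD was set against the other table's control, and 0.24 with 4-OHT. Prc1, which bundles midzone microtubules, fell from 50.7 to 15.97 FPKM with CBD (−1.66) and rose from 49.8 to 55.4 FPKM with 4-OHT (0.15). Anln, anillin, the scaffold of the contractile ring, fell from 18.03 to 4.68 FPKM with CBD (−1.92) and rose from 20.3 to 23.9 FPKM with 4-OHT (0.24). Ect2, the exchange factor that activates RhoA at the cleavage plane, fell from 42.6 to 21.9 FPKM with CBD (−0.96) and rose from 38.2 to 47.2 FPKM with 4-OHT (0.30). Racgap1, a subunit of centralspindlin, fell from 114 to 36.5 FPKM with CBD (−1.64) and rose from 87.8 to 103 FPKM with 4-OHT (0.23). Cep55, which recruits the abscission machinery to the midbody, fell from 15.7 to 4.69 FPKM with CBD (−1.72) and rose from 8.72 to 15.2 FPKM with 4-OHT (0.79). Cep55 showed the largest log2 fold of the 51 with 4-OHT, but its level with 4-OHT of 15.2 FPKM lay just under that of the control of the CBD table, 15.7 FPKM. Racgap1 was likewise lower with 4-OHT than in that control, with a log2 difference of −0.14.

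**Figure D2:**
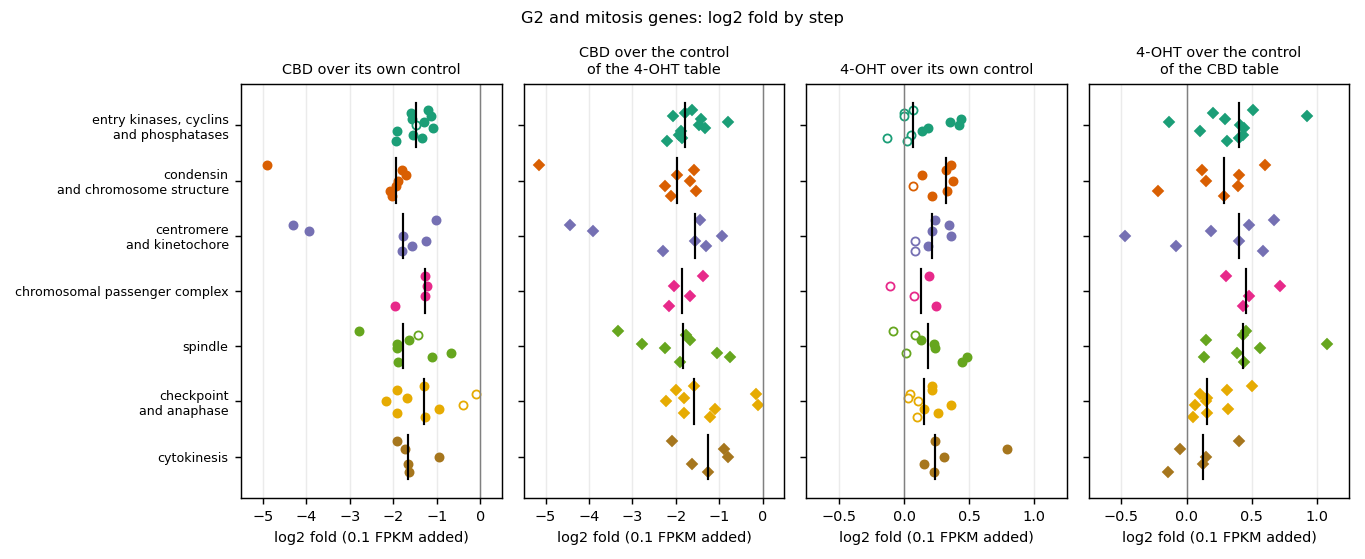
Log2 fold of each gene by step in 4 comparisons, with 0.1 FPKM added to each value. Circles compare columns of 1 table (filled, past the authors' q of 0.05; open, not past it), diamonds compare columns of separate tables without a test, and black bars mark the step medians; all 7 medians lie below −1 in both CBD panels and above 0 in both 4-OHT panels, whose axis is narrower and whose values are as deposited, without centring on marker genes.

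The 4-OHT differences were no larger than those between the 2 control columns. The median size of the log2 difference between these control columns was 0.26 over the 51 genes, against 0.19 for 4-OHT and its own control and 1.65 for CBD and its own control. Over all genes tested in both tables the same sizes were 0.38, 0.18 and 0.48. In 29 of the 51 genes the controls differed from each other by more than 4-OHT differed from its own. The control differences went both ways, with 32 genes higher in the control of the 4-OHT table and 19 higher in that of the CBD table. Over all genes tested in both tables, 50.7% were higher in the control of the 4-OHT table. Among the 51, the control differences ran from −0.93 (Ccnb1) to 0.84 (Cep55).

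Set against the control of the CBD table, 45 of the 51 genes were still higher with 4-OHT, against 56.3% of the genes tested in both tables, and the median log2 fold was 0.31. Of the 51, 27 both rose and exceeded this other control, against 13.9% of genes. Counting only genes that rose, 27 of 33 members exceeded it, against 1564 of all 3055. The 6 members that rose without exceeding it were Cdc25b, Smc4, Ndc80, Sgol1, Racgap1 and Cep55. All 18 members that did not pass the test with 4-OHT lay above the other control as well. Restricted to genes that reached 10 FPKM in both controls, 30 of 47 members rose with 4-OHT, against 25.9% of 6054 tested genes, and none fell, against 22%.

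Among well expressed genes, longer transcripts had lower CBD folds, and the members with the largest falls are long. Over the 5864 genes that reached 10 FPKM in both controls and had a length, the Spearman rho between the CBD log2 fold and the longest annotated coding transcript was −0.44, and over the 51 members it was −0.47. These are correlations across genes of the same libraries, and the genes are not independent replicates. The 11 members of 4000 to under 7000 nt had a median log2 fold of −1.92, against −0.30 for the 1250 genes of that length. The 7 members under 2000 nt had a median of −1.27, against 0.32 for 1916 genes. Members were counted here whatever their level. Short and long members were thus both under the genes of their length. The 5 members of 7000 nt or more, namely Mki67, Cenpe, Cenpf, Aspm and Mad2l1, had a median of −3.94, against −0.76 for 331 genes.

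With the length trend of all genes taken off, the members' median with CBD was −1.59, 44 were at least 2-fold lower and 50 of 51 stayed below 0. Bub3 was the exception, at 0.04. The adjusted log2 folds of Mki67, Cenpe, Cenpf and Aspm were −4.14, −3.61, −3.17 and −2.02, and the first 3 were still the lowest of the list. Mad2l1 went from −0.94 to −0.30, on the basis of a longest transcript of 7557 nt that exceeds the listed locus of 5524 nt in the tables, so this adjusted value is uncertain. The transcripts in use in these cells were not determined. For the 4-OHT folds of 5996 genes that reached 10 FPKM in both controls, the same rho was close to 0 (−0.08).

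**Figure D3:**
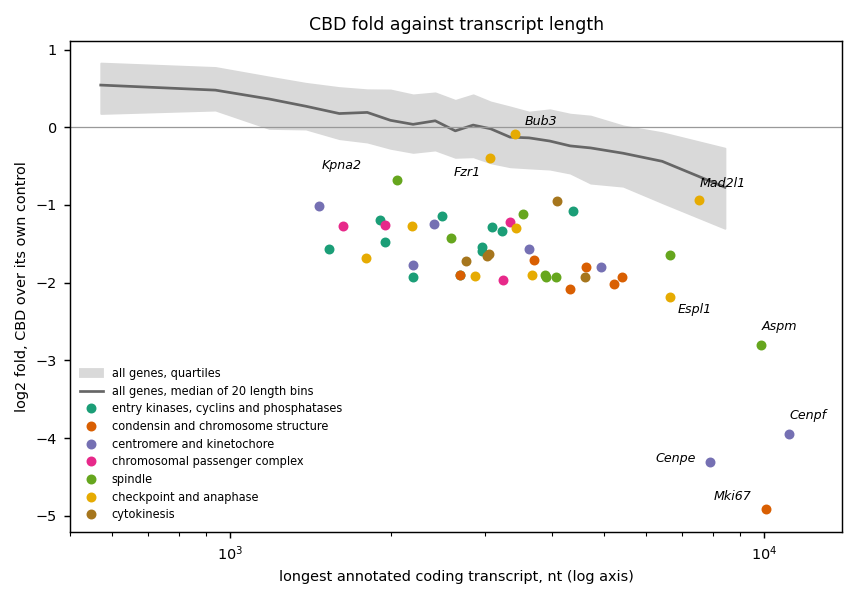
Log2 fold of CBD over its own control against the longest annotated coding transcript (log axis). The grey line and band are the median and quartiles of 5864 genes that reached 10 FPKM in both controls, in 20 bins of length, and each coloured point is 1 of the 51 genes; nearly all lie below the band at every length, with Bub3, Fzr1 and Mad2l1 inside it and Mki67, Cenpe, Cenpf and Aspm lowest.

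Other genes of the same pathways, outside the 51, fell less uniformly with CBD. Of 115 tested genes in 8 further lists, 46 fell, against 7.74% of all tested genes, and 1 rose, against 18.4%, with a median log2 fold of −0.94. With the length trend of all genes taken off, that median was −0.80. With 4-OHT, 41 of 116 rose, against 27.2%, and 7 fell, against 16.9%, with a median of 0.09. Cohesin and its regulators, which hold sister chromatids together until separase acts, fell in 9 of 14 cases, among them Rad21, the subunit that separase cuts, from 244 to 129 FPKM, and the cohesin regulator Pds5a, from 87.6 to 45.6. With the length trend taken off, the median log2 fold of the cohesin list went from −0.95 to −0.63. Rad21 went from −0.93 to −0.74 and Pds5a from −0.94 to −0.17. In condensin II, the sister complex of condensin I, Ncapg2 fell from 32.9 to 7.98 FPKM and Ncapd3, named after its values were seen, fell too, while Ncaph2 stood at 127 and 101. Further cytokinesis genes fell in 7 of 11 cases, but the 2 most abundant, Rhoa at 217 and 318 FPKM and Chmp4b at 120.4 and 149.9, did not pass the test.

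Spindle assembly genes fell in 7 of 16 cases with CBD. This and the following CBD counts stand against 7.74% lower and 18.4% higher over all tested genes. The spindle motor gene Kif11 went from 63.3 to 15.4 FPKM and Tacc3, which stabilises spindle microtubules, from 55.4 to 19.6. Of 11 further entry regulators 6 fell, including Plk4, the kinase of centriole duplication, from 39.1 to 16.9 FPKM, whereas the phosphatase inhibitor gene Ensa stood at 66.4 and 79.4. Of 33 further centromere and kinetochore genes 9 fell and 1 rose. The most abundant of them were Pmf1, a subunit of the MIS12 complex, which fell from 133 to 56.8 FPKM, and Cenpq, which stood at 50.6 and 37.4. The gene that rose was Zwint, a kinetochore protein, from 29.8 to 57.6 FPKM, named after its values were seen. Of 14 tested APC/C genes 2 fell, with a median log2 fold of 0.06. Among all tested genes that reached 10 FPKM in both controls 14.9% fell, and the APC/C count is near that share. The subunit gene Anapc5 fell from 208 to 167 FPKM, Anapc1, named after its values were seen, was the other, and Ube2s, the E2 enzyme that extends ubiquitin chains, stood at 205 and 169. With the length trend taken off, the log2 fold of Anapc1 went from −0.82 to −0.05. The counts with 4-OHT in these lists stand against 27.2% higher and 16.9% lower over all tested genes. Centromere and kinetochore genes rose in 12 of 33 cases and fell in 1, and spindle assembly genes rose in 9 of 18 and fell in 1. Entry regulators rose in 3 of 11 cases and fell in 3, and of 14 APC/C genes 1 rose. Cohesin genes rose in 5 of 14 cases and fell in 1, further cytokinesis genes rose in 4 of 10, and all 3 condensin II genes rose.

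Transcription of these genes is known to be driven by the MuvB complex, which recruits B-MYB and FOXM1 in cycling cells and p130 or p107 with E2F4 in resting cells, and by the CCAAT-binding factor NF-Y. Of 13 genes of that machinery 4 fell with CBD, against 7.74% of all tested genes, and none rose, against 18.4%. The activator genes fell most: Foxm1 from 17.7 to 3.32 FPKM (log2 fold −2.38) and Mybl2, which encodes B-MYB, from 35.8 to 8.58 (−2.05). Rbl1, the gene of p107, fell from 35.4 to 17.3 FPKM and Nfya, the NF-Y subunit that contacts the box, from 32.99 to 23.9. The MuvB core genes did not pass the test, with Lin9 at 12.01 and 6.45 FPKM, Lin37 at 22.7 and 27.6, Lin52 at 11.1 and 12.3, Lin54 at 12.3 and 8.58 and Rbbp4 at 107 and 112. Neither did Rbl2, the gene of p130, at 18.8 and 17.3 FPKM, E2f4 at 92.5 and 62.7, Nfyb at 19.5 and 13.2 and Nfyc at 28.9 and 19.4.

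Of the same 13 genes, 4 rose with 4-OHT, against 27.2% of all tested genes, and 1 fell, against 16.9%. With 4-OHT the activator genes did not pass the test, with Foxm1 at 19.7 and 20.9 FPKM and Mybl2 at 48.7 and 46.98. The pocket protein genes rose, Rbl1 from 22.7 to 30.8 FPKM and Rbl2 from 9.703 to 13.6, although both values lie under the 35.4 and 18.8 FPKM of the other control. Lin37 rose from 16.2 to 19.4 FPKM and Lin52 from 9.07 to 10.6, again under that control, and Nfyc fell from 39.4 to 33.8. Lin9, at 14.1 and 13.2 FPKM, Lin54 at 17.6 and 16.6, Rbbp4 at 123 and 126, E2f4 at 122 and 116, Nfya at 34.5 and 37.1 and Nfyb at 15.5 and 16.6 did not pass the test.

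Among the 45 genes with a promoter, the 33 with a CHR word in the first listed window had a median log2 fold of −1.68 with CBD and 0.21 with 4-OHT. The 12 without had medians of −1.29 and 0.11. The ranges with CBD overlap almost fully, from −4.91 to −0.09 with the word and from −4.30 to −0.40 without it, and the difference was not tested. By CCAAT the medians with CBD were −1.65 for 36 genes with the word and −1.54 for 9 without.

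**Figure D4:**
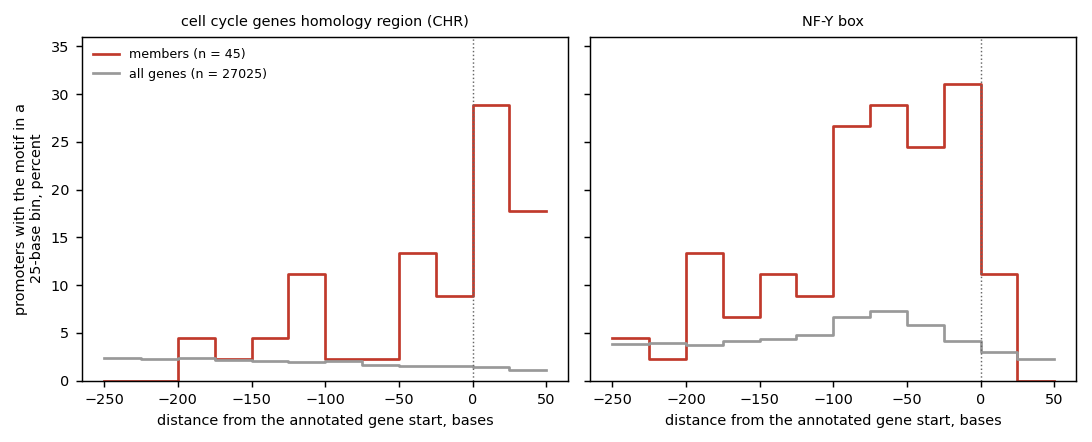
Share of promoters with a CHR word (left) or an NF-Y box (right) whose first base lies in each bin of 25 bases, by distance from the annotated gene start, using the first listed window of each gene. Red is the 45 members with a promoter and grey all 27025 genes; in the members CHR words are most frequent in the 25 bases after the start, at 28.9%, and NF-Y boxes in the 100 bases before it, at 24.4% to 31.1% a bin.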

How the data were processed

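RNA-seq reads from 6 samples (3 groups of 2) were aligned by the authors with Bowtie 0.12.2 to mm9 and compared with Cuffdiff, per the submitters' processing notes. The sources used here do not give the Cuffdiff version or the annotation. The authors deposited 2 tables with 1 FPKM value per group, and a p-value and q-value per gene. The deposited q-value equals a Benjamini-Hochberg adjustment over the tested genes of a table, and it was used as deposited with a threshold of 0.05. The depth per sample is unknown, so no interval could be given, and no test was run on the FPKM values.

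Log2 folds used a pseudocount of 0.1 FPKM, over genes with status OK, in Python 3.11.15 with pandas 2.3.3, numpy 2.4.6, scipy 1.17.1 and matplotlib 3.10.9. All members are named. Of each related list the 2 genes with the highest mean control level are named, and of the transcription list all. The members and lists were chosen with earlier results of these data known. Transcript lengths are those of the longest coding transcript of a symbol in a later annotation (GENCODE vM21, basic set), found for all 51 members. They would be too large where a shorter transcript prevails. The length trend is the median fold in 20 bins over genes that reached 10 FPKM in both controls. The fold and trend steps were tested on simulated data. The alternatives were other pseudocounts, filters, thresholds, scalings, the other control and removal of the length trend.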

Additional observations from a re-analysis of the deposited data

How the results depend on the processing

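No paired analysis was possible because the deposited tables give 1 value per group and no value per sample, and leaving out each replicate was not run for the same reason. At a q threshold of 0.01, 40 genes were lower with CBD and 27 higher with 4-OHT. With the q threshold kept at 0.05 and a log2 fold of at least 1 in size required, 44 were lower with CBD. Under that requirement 0 were higher with 4-OHT, against 33 without it. Pseudocounts of 0.01 and 1 FPKM, the filters on low values, upper quartile scaling and removal of the length trend left each median's direction as it was, although 1 FPKM added brought Cenpe from −4.30 to −2.89. Centring on the 14 leukemia and myeloid progenitor markers, chosen after seeing the data, moved the median of all genes by −0.21 for 4-OHT over its own control. Under it the members' median was −0.0175 for 4-OHT over its own control, −2.31 for CBD over the control of the 4-OHT table, 0.64 for 4-OHT over the control of the CBD table and −0.78 between the controls. Since centring subtracts 1 constant, it turned the 4-OHT log2 fold of the 8 genes that rose by less than that constant: Cdk1 (−0.0284), Gtse1 (−0.0722), Ncapg (−0.0705), Sgol1 (−0.0291), Aurkb (−0.0175), Ckap5 (−0.0767), Mad2l1 (−0.0548) and Prc1 (−0.0577). Among the 18 members that did not pass the 4-OHT test the highest log2 fold was 0.10, so those above 0 turned as well. Because each level is a single value of unknown depth, small differences such as those with 4-OHT have no replicate spread beside them.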
